A study of Solanum tuberosum with 10 samples.

Results

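The comparison described here sets potato (Solanum tuberosum L., cv. Desirée) explants 48 h after an ultrasound (US) exposure against untreated control explants of the same age, with 1 library for each. The US treatment ran at 35 kHz and 70 W for 20 min on single-node explants cut from in vitro plantlets aged 4 weeks, and the control explants were cut and cultured in the same way without it. All material grew on hormone-free medium. The methods describe each library as a pool of 3 biological replicates, while the labels speak of 1 replicate, so the values carry no spread between replicates and every difference below compares 2 libraries. Genes were kept when the higher of both libraries had at least 4 RPM (reads per 1000000 reads of the library total), which left 18427 of the 40430 features of the table. The other 8 of the 10 libraries of the series, from 0 h, 24 h, 1 w and 4 w in each treatment, served only to place the 48 h libraries. Those of 0 h and 24 h were explants as well, and those of 1 w and 4 w came from whole plantlets (leaf, stem and root together). Leaf is the labelled tissue throughout.

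A nodal explant carries an axillary bud and a piece of stem, and in culture it seals its cut ends, forms roots and lets the bud grow out. Growth needs enzymes that loosen the primary wall (expansins, xyloglucan endotransglucosylases and pectin-cleaving enzymes), whereas new water-conducting xylem needs a thick secondary wall of cellulose and xylan that laccases and peroxidases harden with lignin. Lipid-transfer proteins are small secreted proteins that bind lipids and are abundant in the epidermis, where the waxy cuticle is laid down.

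The first question was how many well-expressed genes differed at 48 h, and in which direction. A gene is said to have risen or fallen when its log2 RPM differed by at least 2 (a 4-fold difference), a rule of size and not a test. By this rule 350 genes fell and 83 rose in US, against a background of 2.35% of the 18427 genes past the rule in either direction, 1.9% lower and 0.45% higher. Falls thus made up 80.8% of the 433 genes. At a 2-fold limit (log2 of 1), 1800 genes (9.77%) were lower in US and 877 (4.76%) were higher. Over all well-expressed genes the difference had a median of -0.07, and 55.1% of the genes were below 0. Under quantile normalization of the 10 libraries 269 genes fell and 121 rose, a share of falls of 69.0%, with the median difference moved by 0.09 on the log2 scale. The genes just past the rule had differences of -2.004 (PGSC0003DMG400030339) and 2.006 (PGSC0003DMG402014520), and the nearest outside had -1.992 (PGSC0003DMG400028424) and 1.9997 (PGSC0003DMG402002349).

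**Figure D1:**
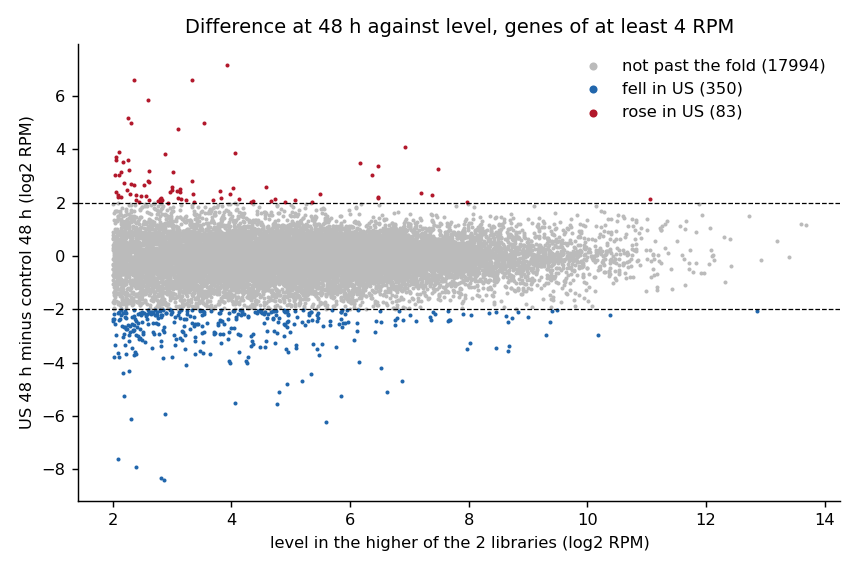
Each point is 1 of the 18427 genes of at least 4 RPM. The x axis gives the log2 RPM in the higher of both 48 h libraries and the y axis the log2 RPM of US minus that of the control. Dashed lines mark differences of 2 in size, with 350 genes below the lower line and 83 above the upper one.

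By the 4-fold rule the surplus of falls was present at every level, as the plot of difference against level shows. Between 4 and 16 RPM 188 genes fell and 60 rose, between 16 and 64 RPM 114 fell and 12 rose, between 64 and 256 RPM 29 fell and 10 rose, and above 256 RPM 19 fell and 1 rose. At the 2-fold limit the counts above 256 RPM were nearly equal, with 107 genes lower and 103 higher in US. The lower levels, in the same order, had 774 lower and 387 higher, 629 and 258, and 290 and 129. The falls summed to 5088 RPM in US and 26094 RPM in the control, and the rises to 4170 RPM in US and 832 RPM in the control. All 433 genes had at least 100 reads in the higher library (lowest 153), so few reads do not limit the direction of any of them. The same rule gave 231 falls (1.31% of the well-expressed genes) and 190 rises (1.07%) between both 0 h libraries, and 87 falls (0.481%) and 130 rises (0.719%) between those of 24 h. It gave 90 falls (0.499%) and 24 rises (0.133%) for 1 w, then 290 falls (1.65%) and 258 rises (1.47%) for 4 w.

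Genes of the secondary wall and of xylem had the lowest median difference of the 8 gene lists. Of 13 well-expressed genes with such a name in the study's annotation, 11 fell and 0 rose, with a median difference of -3.42. Of these 13 the study had listed 12 as changed at 48 h from these same libraries, so the count is not independent evidence of direction. The rank among the lists is not independent either, since the study listed only 2 of 16 proteinase inhibitors and 2 of 25 transcription factors at 48 h. Among the 13 wall and xylem genes the only one listed for another time, a glycine-rich wall protein, differed by 0.19. In such bulk libraries fewer cells of a type and less RNA per cell cannot be told apart. Laccase-4-like, PGSC0003DMG400011019 (chromosome 10, 53998228 to 54002288 of SolTub 3.0, minus strand), is related to an Arabidopsis enzyme of lignin polymerization. It had 0.521, 4.57, 1.40, 2.17 and 1.9 RPM in US from 0 h to 4 w, against 2.25, 1.20, 36.5, 2.53 and 3.34 RPM in the controls. The control at 48 h was thus the only high library. The gene was 26.0-fold lower in US at 48 h (95% exact interval 20.0 to 34.4). Like all intervals here, it addresses counting error only and is too narrow where read pairs were counted more than once.

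COBRA-like protein 4, PGSC0003DMG400024530 (chromosome 3, 54861544 to 54863584, plus strand), is needed for cellulose deposition in secondary walls of Arabidopsis. Its levels were 6.86, 7.22, 1.5, 2.89 and 13.4 RPM in US from 0 h to 4 w, against 6.94, 4.01, 57.3, 9.64 and 8.05 RPM in the controls. It was 38.2-fold lower in US at 48 h (29.7 to 49.98), and here US at 48 h was also the lowest of all 10 libraries. A xylem cysteine proteinase 1-like gene, PGSC0003DMG400029400 (chromosome 12, 57549098 to 57552323, plus strand), belongs to proteases that clear the contents of dying vessel cells in Arabidopsis. It had 0, 31.8, 4.55, 3.70 and 0.177 RPM in US, against 1.48, 8.91, 71.3, 2.98 and 1.77 RPM in the controls, so that both treatments had a high library, US at 24 h and the control at 48 h. The fall at 48 h was 15.7-fold (13.5 to 18.3). Laccase-12-like, PGSC0003DMG402027116 (chromosome 5), fell 60.8-fold (25.7 to 189) on 5 reads in US and 280 in the control. The remaining falls of the group lay between -2.13 and -3.94 on the log2 scale and included the fasciclin-like arabinogalactan protein PGSC0003DMG400041435 (4.62 RPM in US, 45.9 RPM in the control), the ESKIMO 1-like gene PGSC0003DMG400027728 (1.43 RPM in US, 19.4 RPM in the control), whose Arabidopsis relative acetylates xylan, and the IQ-DOMAIN 1 gene PGSC0003DMG400015332 (1.23 RPM in US, 18.9 RPM in the control).

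**Figure D2:**
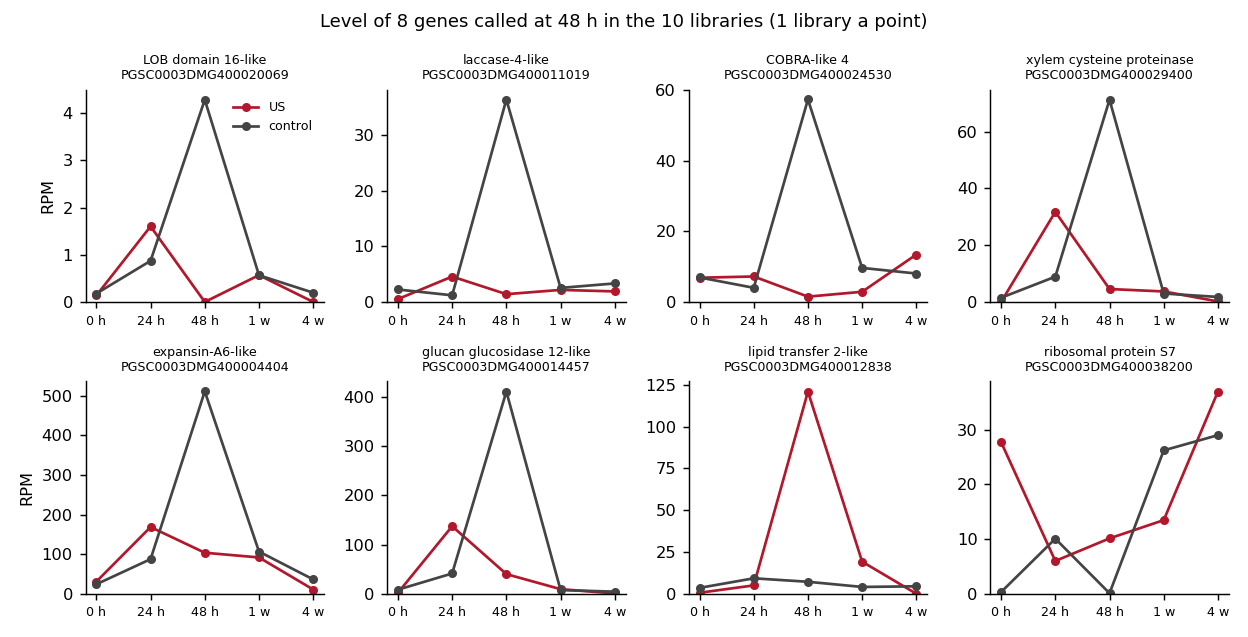
RPM (linear y axes that start at 0) of 8 genes named in the text in the 10 libraries, with time on the x axis, US in red and control in dark grey. Each point is 1 library. In the 6 genes that fell the control at 48 h is the highest library, and in the lipid-transfer 2-like gene US at 48 h is, with 121 RPM.

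Genes of wall loosening and of pectin followed the same direction. Of 21 well-expressed genes 13 fell and 0 rose (median -2.12). The 12 that the study listed at 48 h held 11 of the falls. Among the 9 listed for other times only, 2 fell and 8 were below 0, with a median of -1.29, beside the median of -0.07 over all well-expressed genes. The xyloglucan endotransglucosylase/hydrolase 16 gene, PGSC0003DMG400017298 (chromosome 7, 51079173 to 51081145, plus strand), which encodes an enzyme that cuts and rejoins xyloglucan, had 6.80, 158, 5.01, 18.9 and 0.279 RPM in US, against 21.0, 28.9, 92.2, 9.42 and 0.0654 RPM in the controls. The highest library was US at 24 h, and at 48 h the gene was 18.4-fold lower in US (15.99 to 21.3). The pectate lyase P18 gene, PGSC0003DMG400012640 (chromosome 2, 47581291 to 47583372, minus strand), had 1.21, 253, 34.3, 2.42 and 0.228 RPM in US, against 1.12, 69.3, 406, 3.42 and 0.393 RPM in the controls. Its high libraries were those of 24 h and 48 h in both treatments, and it fell 11.8-fold (11.2 to 12.5). Expansin-A6-like, PGSC0003DMG400004404 (chromosome 6, 4847382 to 4850638, plus strand), had 30.7, 169, 104, 91.8 and 10.8 RPM in US, against 24.1, 87.5, 511, 107 and 36.3 RPM in the controls. In this gene the control at 48 h stood above the other 9 libraries, and the fall was 4.93-fold (4.77 to 5.10). Polygalacturonase, pectinesterase, expansin, EXORDIUM-like 3, extensin-1 and xyloglucan endotransglucosylase genes made up the rest of the falls.

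The largest fall of a PGSC gene on the deposited scale was that of a LOB domain-containing protein 16-like transcription factor, PGSC0003DMG400020069 (chromosome 6, 58784168 to 58785839, minus strand). Its Arabidopsis relative acts downstream of auxin in lateral root initiation. It had 0.137, 1.60, 0, 0.568 and 0 RPM in US, against 0.177, 0.871, 4.28, 0.566 and 0.196 RPM in the controls. With 0 of 41304037 reads in US and 163 reads in the control it was at least 59.0-fold lower (0 reads set to a floor of 3 reads in the library). The RSI-1 gene, PGSC0003DMG402015689 (chromosome 11), named here after its values were seen, is known from tomato as a gene of early root primordia. It had 7.05, 412, 81.3, 76.1 and 7.71 RPM in US, against 24.1, 134, 628, 79.0 and 27.2 RPM in the controls. Both treatments thus had 1 high library each, at 24 h in US and at 48 h in the control.

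Of 25 well-expressed transcription factors in the study's annotation 3 fell and 1 rose. The study had listed 2 of the falls, the LOB domain and the GATA factor, at 48 h from these libraries. Of the 23 listed for other times only, 1 fell and 1 rose. Besides the LOB domain factor, a GATA zinc finger gene, PGSC0003DMG400009396, had 22.3 RPM in US and 111 RPM in the control, a 4.97-fold fall (4.63 to 5.34). An ethylene-responsive factor, PGSC0003DMG400013255, had 1.40 RPM in US and 6.12 RPM in the control. The factor that rose was FAMA, PGSC0003DMG400015760, which in Arabidopsis directs the last step of guard cell formation. It had 8.93 RPM in US and 2.05 RPM in the control (4.36-fold higher, 3.41 to 5.64). A second FAMA-like gene, PGSC0003DMG400029634, had 24.6 RPM in US and 11.4 RPM in the control, and YABBY 1, a leaf polarity factor, PGSC0003DMG400025969, had 69.0 RPM in US and 19.4 RPM in the control, neither of them past the fold. The 21 factors not past the fold, these 2 and WRKY, ZAT10-like and further ethylene-responsive genes among them, had differences between -1.84 and 1.83. With a pseudocount of 0.5 RPM the difference of FAMA was 1.89 and that of PGSC0003DMG400013255 -1.80, both short of the fold.

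Of 11 well-expressed defence genes 6 fell and 0 rose (median -2.20). Among these, 5 of the 6 falls were genes that the study listed at 48 h from these libraries. Of the 5 listed for other times only 1 fell, 3 were below 0 and 2 above it, with a median of -0.89. A glucan endo-1,3-beta-glucosidase 12-like gene, PGSC0003DMG400014457 (chromosome 12, 48603571 to 48606131, minus strand), had 2.11, 137, 40.0, 9.43 and 0.710 RPM in US, against 8.42, 41.3, 411, 7.65 and 4.34 RPM in the controls. US at 48 h (40.0 RPM) and the control at 24 h (41.3 RPM) were close to each other, and the fall at 48 h was 10.3-fold (9.76 to 10.8). The germin-like gene PGSC0003DMG400017178 (chromosome 9, 56322586 to 56324017, minus strand) had 1.97, 4.52, 0.654, 0.617 and 3.95 RPM in US, against 3.19, 1.48, 48.3, 5.21 and 4.32 RPM in the controls. Its fall of 73.9-fold (50.6 to 113) was the largest one with reads in both libraries. The STH-2-like gene PGSC0003DMG402001494, of a family of pathogenesis-related proteins first described in potato, fell 4.73-fold (4.55 to 4.905), and pathogenesis-related protein PR-1, PGSC0003DMG400043108, had 75.3 RPM in US and 65.2 RPM in the control.

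Among 8 peroxidases 3 fell and 2 rose. The study had listed 2 of the falls and 1 of the rises at 48 h from these libraries. Peroxidase 21-like, PGSC0003DMG400010465 (chromosome 10), had 0, 39.3, 1.91, 0.247 and 0.203 RPM in US, against 0.325, 13.2, 40.6, 0.172 and 0.0436 RPM in the controls, a 21.2-fold fall at 48 h (16.9 to 27.0). Peroxidase 27-like, PGSC0003DMG400024330 (chromosome 12), went the other way, with 0, 0.152, 6.05, 7.08 and 0 RPM in US, against 0, 1.26, 0.105, 6.86 and 0.698 RPM in the controls. The control at 48 h lay far below the control at 1 w in this gene, and the rise was 57.6-fold (22.2 to 213), on 250 reads in US and 4 in the control.

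Of the falls with the most reads, a gene without a name in the study's annotation, PGSC0003DMG400030321 (chromosome 6, 56643280 to 56644282, plus strand), had 1771 RPM in US and 7413 RPM in the control. SENESCENCE-ASSOCIATED GENE 21-like, PGSC0003DMG400031788 (chromosome 9, 52778781 to 52779889, plus strand), of the late embryogenesis abundant proteins, had 262, 646, 151, 184 and 216 RPM in US, against 574, 239, 1164, 139 and 497 RPM in the controls. It fell 7.68-fold (7.48 to 7.89). Centring all differences on their median took PGSC0003DMG400030321 (-1.996) and PGSC0003DMG400028295 (-1.95), another fall with many reads, out of the calls. Among the 10 largest falls were also PGSC0003DMG400027141 (-5.24), without a name, and PGSC0003DMG400023740 (-5.08), a hypothetical protein.

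The largest rises were those of lipid-transfer protein 2-like genes. Of 13 well-expressed lipid-transfer genes 5 rose and 2 fell. All 7 were listed by the study at 48 h, and of the 6 listed for other times only none (0) was past the fold. PGSC0003DMG400002471 (chromosome 1, 50944487 to 50945282, plus strand) had 0, 0.0508, 15.1, 1.68 and 0 RPM in US, against 0, 0.741, 0.105, 0.516 and 1.24 RPM in the controls, on 625 reads in US at 48 h and 4 in the control, a ratio of 144 (55.9 to 530). PGSC0003DMG400012838 (chromosome 10, 13471487 to 13479568, plus strand) had 0.631, 5.03, 121, 19.2 and 0.0253 RPM in US, against 3.54, 9.28, 7.20, 4.11 and 4.49 RPM in the controls, a 16.8-fold rise (14.9 to 19.0). US at 48 h was the only high library of this gene, and the control at 24 h (9.28 RPM) was near the control at 48 h. Its neighbour PGSC0003DMG400012837 had 211 reads in US and 2 in the control, a ratio of 97.2 (26.6 to 808). The genes PGSC0003DMG401031237 and PGSC0003DMG402031237, which overlap each other on chromosome 10 and whose counts are therefore uncertain, had 71.6 and 88.7 RPM in US, against 6.36 and 8.49 RPM in the control.

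The lipid-transfer 2-like genes resemble each other in sequence, and reads that fit several copies equally were not counted, so their levels are uncertain. The study's RT-qPCR primers for PGSC0003DMG400002471 and PGSC0003DMG402031237 show the likeness over a short stretch. They are shown 5′ to 3′ with the bases that differ between both genes in capitals.
PGSC0003DMG400002471 forward: ctccAtgcctcccTtatct
PGSC0003DMG402031237 forward: ctccTtgcctcccAtatct
PGSC0003DMG400002471 reverse: ttgcccacatTaatgcct
PGSC0003DMG402031237 reverse: ttgcccacatCaatgcct
Counted from 1 at the 5′ end of each primer, the differences are A5T and T14A in the forward primer and T11C in the reverse primer, the base of PGSC0003DMG400002471 standing first. The 2 lipid-transfer genes that fell are named non-specific lipid-transfer protein 2 without "like". PGSC0003DMG400005731 (chromosome 3) had 289 RPM in US and 1337 RPM in the control, and PGSC0003DMG400030587 (chromosome 5) had 119 RPM in US and 665 RPM in the control. Summed over the 15 listed lipid-transfer genes the level was 2729 RPM in US and 4057 RPM in the control.

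Chloroplast and storage-related genes gave few rises. Of 24 well-expressed genes of photosynthesis and plastids 2 rose and 1 fell, but 17 of the 24 were above 0, with a median of 0.80. The study had listed the fall and 1 of both rises at 48 h from these libraries. Among the 22 listed for other times only, 16 were above 0. Both rises were genes named ribosomal protein S7 (chloroplast). PGSC0003DMG400038200 (chromosome 1, 51065414 to 51065809, minus strand) had 27.7, 5.996, 10.1, 13.5 and 36.9 RPM in US, against 0.325, 10.1, 0.105, 26.2 and 29.0 RPM in the controls. The 2 lowest libraries were thus the controls at 0 h and 48 h. At 48 h the ratio was 96.3 (37.3 to 355). The paper reports RT-qPCR on biological replicates, with the same direction as RNA-seq for every gene it chose. The chosen genes included this one, PGSC0003DMG400002471 and PGSC0003DMG400020069. The time compared for each gene is not stated in the paper's main text. The primers that the study used for this gene were as follows, shown since copies of plastid genes also lie in nuclear chromosomes and the counts are uncertain for that reason.
PGSC0003DMG400038200 forward: atcgactcatcaagttccc
PGSC0003DMG400038200 reverse: agtctcttcctttttgcgt
Of 16 proteinase inhibitors, proteins that block digestive proteases of herbivores and accumulate in potato tubers and wounded leaves, 1 rose and 1 fell. Both were listed by the study at 48 h from these libraries, and of the 14 listed for other times only none (0) was past the fold. Kunitz-type inhibitor B, PGSC0003DMG400009512 (chromosome 3), had 0.823, 21.8, 83.0, 0.444 and 0.786 RPM in US, against 42.7, 14.1, 10.2, 3.25 and 28.7 RPM in the controls (8.16-fold higher at 48 h, 7.34 to 9.09). Its neighbours PGSC0003DMG400009511 and PGSC0003DMG400009513 were not past the fold but carried most of the reads of the group, with 13129 and 12373 RPM in US, against 5853 and 5393 RPM in the control. The miraculin-like gene PGSC0003DMG400027054, of the Kunitz family, had 1.11 RPM in US and 30.5 RPM in the control. Among the 5 largest rises was also PGSC0003DMG400000969 (5.18), without a name. The rise with the most reads was that of PGSC0003DMG400029169 (chromosome 9), without a name, with 2138 RPM in US and 481 RPM in the control.

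Markers of cell types were read beside these groups. All 7 xylem markers were genes that the study listed at 48 h from these libraries, so they are not an independent check of the cell type. Of the 7, 6 fell, and their summed level at 48 h was 55.3 RPM in US, against 413 RPM in the control, while the other 8 libraries lay between 18.5 and 128 RPM. Leaf mesophyll markers, chlorophyll a-b binding proteins among them, were detected in both libraries, as the tissue label asks. Of 8 markers none (0) was past the fold and 7 were above 0 (median 1.02), and they summed to 583 RPM in US and 291 RPM in the control. Of 15 well-expressed epidermis markers 5 rose and 3 fell, but the 5 rises and 2 of the falls were the lipid-transfer genes described above, which the study listed at 48 h. The 8 epidermis markers listed for other times only had 1 fall and 0 rises, with 4 below 0, 4 above it and a median of 0.12. The fall was that of an epidermis-specific secreted glycoprotein EP1-like gene, PGSC0003DMG402007101 (-2.13). Both protodermal factor 1-like genes, which mark the outer cell layer, were higher in US without passing the fold (319 RPM in US and 161 RPM in the control for PGSC0003DMG400007796, 133 RPM in US and 52.9 RPM in the control for PGSC0003DMG400017342). The endodermis and root list had 2 well-expressed genes (0 past the fold, median -1.28) and the stomata list 2 (1 rise). All 7 xylem markers had reads in both libraries. The part of a shift in cell types in the falls was not tested.

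The next question was how the called genes behaved at the other times, whose libraries were not used to choose them. Over the 350 falls the median US minus control difference was -0.74 for the 0 h libraries, 1.01 for 24 h, 0.20 for 1 w and -0.72 for 4 w. At 24 h 304 of the 350 were higher in US, 30 rose and 0 fell, where 0.719% of all genes of at least 4 RPM rose and 0.481% fell. Over the 83 rises the medians were 0.48, -1.40, -0.01 and 0.25 at these times, and at 24 h 72 of the 83 were lower in US, 15 fell and 0 rose. Of all 18427 well-expressed genes 8086 were higher and 10341 lower in US at 24 h. Within a treatment, 189 of the 350 falls (54.0%) had their highest US level at 24 h, where 19.4% of all well-expressed genes did. In the controls 250 of the 350 (71.4%) had their highest level at 48 h, where 27.2% of all well-expressed genes did, and this share is partly fixed by the rule. For 152 of the 350 (43.4%) both held, against 10.2% of all well-expressed genes, and the rule fixes part of this share too. It asks for a low US level at 48 h, and only 4.0% of the falls had their highest US level there. Of all well-expressed genes 11.3% did. The median log2 RPM of the falls was 1.02, 2.83, 1.04, 1.49 and 0.09 in US from 0 h to 4 w, against 1.82, 1.79, 3.81, 1.30 and 0.80 in the controls.

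**Figure D3:**
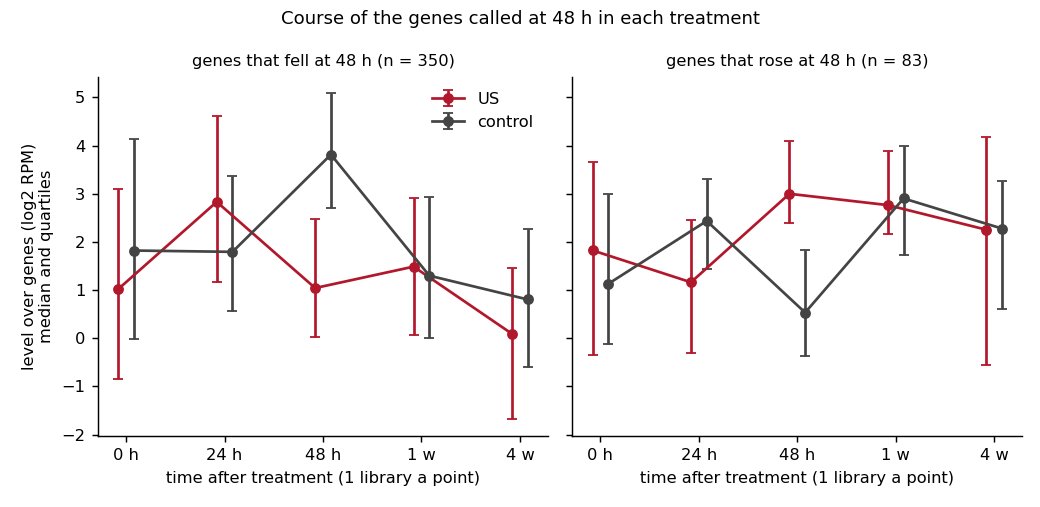
Median log2 RPM (points) with the interquartile range over genes (bars) at each time, for the 350 genes that fell at 48 h (left) and the 83 that rose (right), US in red and control in dark grey. Each point is 1 library, and the bars show the spread over genes, not over replicates. The falls are highest at 24 h in US and at 48 h in the control.

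The remaining question was whether US at 48 h resembled an earlier stage of the control. Over the 20322 genes of at least 4 RPM in any library, the control at 24 h was the library nearest to US at 48 h, with a root mean square log2 difference of 0.71. The control at 1 w followed with 0.85, the control at 48 h with 0.87, US at 1 w with 0.95 and US at 24 h with 1.19. The libraries of 0 h were farthest (1.87 for US and 1.83 for the control). US at 48 h therefore lay near a library from before and a library from after its own control. Set against the control at 24 h, 215 genes were lower and 61 higher in US at 48 h by the same rule, and against the control at 1 w 180 were lower and 261 higher.

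For the 350 falls the control at 24 h was nearer to US at 48 h than to the control at 48 h in 266 genes (76.0%), against 65.7% of all well-expressed genes. It was within 2-fold of US at 48 h in 213 genes and within 2-fold of the control at 48 h in 64. Its median lay 0.37 above US at 48 h and 2.13 below the control at 48 h. The control at 1 w was on the side of US at 48 h in more genes, 298 of the 350 (85.1%), with a median 0.03 above it. It was within 2-fold of US at 48 h in 202 genes. US at 1 w was on that side for 290 genes (82.9%), and the 4 w libraries for 327 (US) and 313 genes (control). Of the 0 h libraries, US was on that side for 259 genes (74.0%) and the control for 222 (63.4%). US at 24 h was the only library that did not side with US at 48 h, with 167 genes (47.7%). Over all well-expressed genes the share was 68.0% for the control at 1 w, 64.8% for US at 4 w and 63.2% for the control at 4 w. It was 66.0% for US at 1 w, 51.6% for US at 0 h and 47.0% for the control at 0 h. For US at 24 h it was 43.4%, a lower share than among the falls. Of the 8 libraries the control at 24 h was the nearest one to US at 48 h for 82 of the 350 falls, and the control at 1 w for 72. For the 83 rises the control at 24 h was nearer to US at 48 h in 67 genes (80.7%). The control at 1 w was nearer to it in 60 (72.3%) and US at 24 h in 19 (22.9%).

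**Figure D4:**
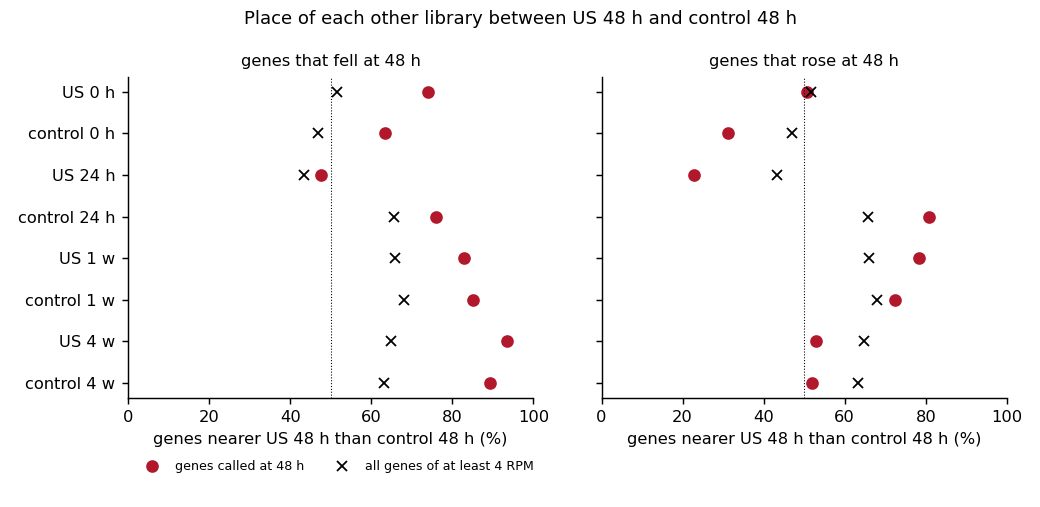
Percentage of genes (x axis, 0 to 100) whose level in each of the 8 other libraries (rows) was nearer to US at 48 h than to the control at 48 h, for the genes that fell (left, n = 350) and rose (right, n = 83). Filled points are the called genes and crosses all 18427 well-expressed genes. For the falls, 7 of the 8 libraries lie right of the dotted line at 50%, and US at 24 h lies at 47.7%.

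Since the rule chose falls for a high control and a low US library at 48 h, the place of both among the other 8 is a description. The control at 48 h was above all 8 in 219 of the 350 falls (62.6%, against 17.3% of all well-expressed genes), and US at 48 h was below all 8 in 21 (6.0%, against 4.5%). In the 83 rises both occurred about equally. US at 48 h was above all 8 in 25 (30.1%, against 7.0% of all well-expressed genes). The control at 48 h was below all 8 in 23 (27.7%, against 6.1%). A further count used genes chosen without US at 48 h. Between 24 h and 48 h 441 genes rose 4-fold in the control and 120 fell, and 199 of the 441 were also among the genes called at 48 h. For the 441 the level in US at 48 h was nearer to that of the control at 24 h in 339 (76.9%), but so was the level in the control at 1 w in 341 (77.3%) and in US at 24 h in 324 (73.5%), shares of about the same size. For the 120 that fell, US at 48 h was nearer to the control at 24 h in 52 (43.3%). The control at 1 w was nearer to it in 61 of the 120 (50.8%) and US at 24 h in 95 (79.2%).

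The called genes tended to have a short span. The PGSC genes were ranked by span (start to end, introns included) and split into 4 length groups of nearly equal size. Of the 4594 genes in the shortest group (312 to 2094 bases) 183 fell and 39 rose. In the next group (2095 to 3792 bases) 100 fell and 26 rose, in the following one 32 fell and 7 rose, and in the longest (5874 to 56876 bases) 11 fell and 9 rose of 4588. The median span was 1863 bases for the falls, 2141 bases for the rises and 3792 bases for all well-expressed PGSC genes. The median difference at 48 h was -0.21 in the shortest group and 0.01 in the longest. For the falls the order held within levels, and between 16 and 64 RPM 55 of 1613 genes fell in the shortest group and 5 of 1867 in the longest. For the rises the order was less regular within levels. From the shortest to the longest group, 1.56%, 1.63%, 0.61% and 0.68% of the genes rose between 4 and 16 RPM. Between 16 and 64 RPM 3, 5, 1 and 3 genes rose, and from 64 RPM upwards 6, 1, 1 and 2. Against the control at 24 h 103 genes fell and 38 rose in US at 48 h in the shortest group, and 3 fell and 4 rose in the longest. Short genes also differed between both controls, without a US library. In the control at 48 h against that at 24 h, 258 were higher and 29 lower in the shortest group. In the longest group 11 were higher and 6 lower. The median difference between these controls was 0.18 in the shortest group and -0.08 in the longest. Short genes also made up many of the calls at other times, with 148 falls and 82 rises in the shortest group at 4 w. The part of RNA quality and of fragment length in these differences was not tested.

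**Figure D5:**
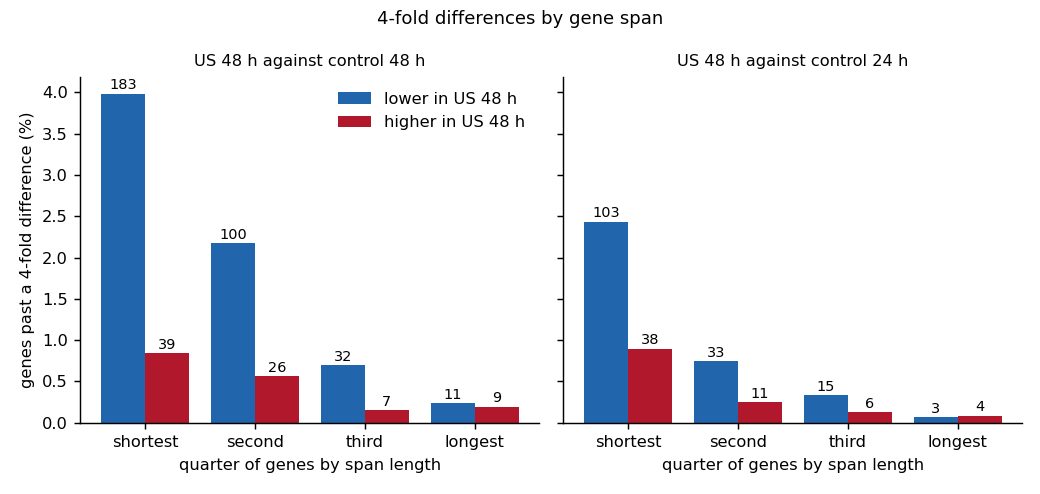
Percentage of PGSC genes past a 4-fold difference (y axis, starting at 0) in 4 equal-sized groups by span length (x axis), with the number of genes over each bar. Blue bars are genes lower and red bars genes higher in US at 48 h, against the control at 48 h (left) and at 24 h (right). In the longest group 11 fell and 9 rose against the control at 48 h.

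Annotated non-coding RNAs, which are for the most part not polyadenylated, were counted apart. Of 33 well-expressed ribosomal RNA features 10 fell and 2 rose, while all 276 ribosomal RNA features of the table summed to 2723 RPM in US and 2211 RPM in the control. Of 28 features that are other non-coding RNAs or overlap one 14 fell and 0 rose, 6 of them annotated as RNA of the signal recognition particle, 5 of these on chromosome 9. At 48 h the 14 summed to 25.1 RPM in US, against 407 RPM in the control. At 0 h they summed to 110 RPM in US and 851 RPM in the control, and the 6 libraries of the other times lay between 7.57 and 40.9 RPM. All 1133 non-coding features other than ribosomal RNA summed to 1274 RPM in US and 1711 RPM in the control at 0 h. At 48 h they summed to 600 RPM in US and 1212 RPM in the control. The 14 were chosen for a fall at 48 h, and this choice favours a high control at that time. Among the 14, the controls of 0 h and 48 h held more RNA than the other 8 libraries. These features exist in near-identical copies, several overlap genes, and their values are uncertain. Without them, 326 PGSC genes fell and 81 rose.

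By position, chromosome 9 had the highest share of falls among the assembled chromosomes (43 of 1346 genes, 3.19%) and chromosome 1 the lowest (31 of 2301, 1.35%). Neighbouring PGSC genes fell together in 19 runs of 2 or 3 genes (40 genes) and rose together in 3 runs (6 genes). In 2 of the 19 and 1 of the 3 runs members overlap each other and can share reads, so they are not separate observations. On chromosome 9 a run of 3 held the STH-2-like gene PGSC0003DMG402001494 (-2.24), PGSC0003DMG401001494 (-3.29) and STH-2, PGSC0003DMG400001550 (-3.47), whose span overlaps another feature. A run of 3 on chromosome 5 held an aspartic proteinase nepenthesin-1 gene, PGSC0003DMG400023324 (-3.50). Others paired a pectinesterase-like gene with another one (PGSC0003DMG400002085 and PGSC0003DMG400002074, -2.12 and -2.65, both overlapping another feature), the pectate lyase P18 gene with PGSC0003DMG400012617 (-3.46), and COBRA-like protein 4 with PGSC0003DMG400024677 (-3.18). Named members of further pairs were SPIRAL1-like 5, PGSC0003DMG400012325 (-3.71), and aquaporin PIP2-1-like, PGSC0003DMG400020906 (-2.099), a water channel. The fasciclin-like gene PGSC0003DMG400041435 (-3.31) and the EP1-like gene PGSC0003DMG402007101 (-2.13) were also members of such pairs. Runs of rises were the lipid-transfer pairs on chromosome 10 and a pair on chromosome 1 (PGSC0003DMG400001635 at 3.03 and PGSC0003DMG400001598 at 2.04).

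A test over the 10 libraries asked whether the US effect at 48 h differed from the mean US effect of the 4 other times. With limma, time as a block and Benjamini-Hochberg adjustment, 0 of 20494 genes passed an adjusted p of 0.05, the lowest adjusted p being 0.72, and 1207 had an unadjusted p under 0.05. The test takes the scatter of the US effect over the other times as its error and has 3 residual degrees of freedom. Of the 350 falls 285 and of the 83 rises 71 had enough reads to enter it. Their unadjusted p-values share the 48 h libraries with the rule and are not read further. The EXORDIUM-like 3 gene PGSC0003DMG400023011 had the smallest p of all genes, with a 48 h effect minus that of the other times of -3.13 ± 0.46 (SE, log2; limma adjusted p 0.72) and 84.1 RPM in US at 48 h, against 425 RPM in the control.

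Depth was similar on both sides. The library totals were 41304037 reads for US and 38049313 reads for the control at 48 h, within the range of 33850938 to 45899162 reads of the 10 libraries, and 25939 and 25487 features had reads. Features with 1 to 5 reads numbered 1554 in US at 48 h, against 1316 in its control, and between 866 and 2021 in the other libraries. A count of 0 reads allowed up to 0.0726 RPM in US and 0.0788 RPM in the control.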

How the data were processed

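The authors sequenced oligo(dT)-enriched, stranded libraries as paired ends, trimmed reads (Trim Galore 0.5.0), aligned them to SolTub 3.0 (HISAT2 2.1.0) and counted them per gene in SeqMonk 1.42.0 at a mapping quality of at least 60, which keeps unique alignments. The values they deposited are log2 RPM. The 3124 features that overlap another are uncertain, since use of strand in counting is not given in the sources used here. Genes with 0 reads carry the log2 value of 0.9 reads. From this scale, whole reads were recovered (99.9% or more of the values above the minimum lay within 0.1 of a whole read), and they gave exact conditional 95% intervals (Clopper-Pearson). Gene reads summed to 1.71 to 1.77 times the library total, so read pairs can be counted more than once. The intervals treat counts as independent and address counting error only. Where pairs were counted more than once, they are too narrow even for that error. Depth was 33850938 to 45899162 reads a library.

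With 1 library a group, genes were called by a rule of size (at least 4 RPM in the higher library, log2 difference of at least 2). limma 3.58.1 (R 4.3.3; lmFit, eBayes with trend, mean log2 RPM of at least 0), checked on simulated data, tested the 48 h effect against the other times. Alternatives were other minima, folds, scalings, pseudocounts, feature sets and distance measures. A rule named the 10 largest falls and 5 largest rises of PGSC genes, and the 5 falls and 3 rises with most reads. It also named up to 5 members of each word list, transcription factors and runs of neighbours. Other genes were named outside this rule. Among them were expansin-A6-like, ESKIMO 1-like, EXORDIUM-like 3, PR-1, RSI-1, both protodermal factor genes and the neighbours of Kunitz-type inhibitor B. Names are those of the study's annotation (367 identifiers, 93 of the 433 called genes), whose values were not used. The lists and the members were chosen with earlier results of these data known.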

Additional observations from a re-analysis of the deposited data

Results flagged for a closer look

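The US difference had opposite directions at 24 h and at 48 h in the genes called at 48 h. Over the 350 genes that fell at 48 h the median US minus control difference was 1.01 at 24 h and -2.47 at 48 h, and over the 83 genes that rose it was -1.40 at 24 h and 2.39 at 48 h (log2 RPM). It was singled out because the same contrast moved in opposite ways at both times, which share no library. The difference was not tested.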

How the results depend on the processing

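The direction of the surplus, more falls than rises, held under each alternative below. With a minimum of 1 RPM 610 genes fell and 303 rose (66.8% falls), with 16 RPM 162 and 23 (87.6%), and with no minimum 1412 and 1291 (52.2%). A log2 difference of at least 1 gave 1800 and 877 (67.2%), and one of at least 3 gave 86 and 26 (76.8%). Quantile normalization gave a share of falls of 69.0%, centring on the median 75.7%, and a pseudocount of 0.5 RPM 55 rises. Of 2 alternatives added after the data were seen, the control at 24 h in place of that at 48 h gave 215 falls, and PGSC genes above the median span gave 43 falls and 16 rises (72.9%). The control at 24 h was nearer to US at 48 h in 69.5% of the falls with a minimum of 1 RPM and in 81.5% with 16 RPM, and in 67.3% of the rises with a pseudocount of 0.5 RPM. It stayed the nearest library under all 5 alternatives, while the control at 48 h ranked 4 by the median absolute difference, and ranked 2, with the control at 1 w at 3, with a minimum of 16 RPM and without the called genes. The limma test called 139 genes without a filter on low values, of which 138 had a mean log2 RPM below 0, and 0 under the other alternatives, the pairs of other times left out in turn included (0 to 0 genes, 921 to 1525 at an unadjusted p under 0.05). The cause of these shifts was not tested. Of the 102 genes named by the rule 97 kept their side of the fold after centring, 88 with the pseudocount and 93 under quantile normalization. The 102 include the 21 transcription factors that were not past the fold, so these numbers do not stand for called genes alone. Genes named outside the rule are not in this count.

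No paired analysis by replicate number was possible because the number is 1 in every group. The limma test is paired by time. Leaving out a replicate was not possible with 1 library a group, and no value here separates the treatment from chance differences between both libraries.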
